A study of Mus musculus with 6 samples.

Results

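Transcripts of 9 genes of the MYC, MAX and MXD network were followed in mouse CD8+ T cells that had been cultured for 7 days with or without aminooxyacetic acid (AOA), an inhibitor of aminotransferases and other enzymes whose cofactor is the active vitamin B6 molecule, pyridoxal phosphate. The genes were Myc, Max, Mxd1, Mxd3, Mxd4, Mxi1, Mnt, Mlx and Mycbp2, taken by symbol, and all 9 were found among the 11922 genes of the count table. All 9 also passed the low-count filter, which left 11759 genes for testing. With AOA, Myc, Max, Mlx and Mxd3 rose, while Mxd1, Mxi1, Mxd4, Mnt and Mycbp2 fell. The calls of Myc and Mlx, unlike the others, were lost when some single libraries were left out. Within the MXD family the most abundant transcript per kilobase was Mxd4 in vehicle libraries and Mxd3 in AOA libraries.

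Splenic CD8+ T cells of C57BL6/J mice were sorted on magnetic columns and stimulated with anti-CD3/anti-CD28 beads for 72 hours, then washed and grown for 4 more days. Both groups received recombinant human IL-2 at 100 units/ml throughout, and differed in that 1 received water (vehicle) and the other 0.25 mM AOA from the start. The same 3 mice gave a culture to each group, so that there were 3 vehicle and 3 AOA libraries, numbered here by mouse. The labels state no age for the mice behind these libraries. RNA was taken at day 7 alone. Reads were deposited as raw counts per gene, which are given below as CPM (counts scaled to a common library size, with TMM factors). Between genes, levels are compared only as CPM per kilobase of the gene length given in the table. A gene is called changed when its adjusted p (edgeR quasi-likelihood test, Benjamini-Hochberg over all 11759 genes) is under 0.05. Log2 fold changes are AOA over vehicle and are given with their standard error (SE).

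MYC is a basic helix-loop-helix leucine zipper (bHLHZip) transcription factor that binds the E-box CACGTG as a dimer with MAX and drives genes of ribosome assembly, metabolism and cell division. It is induced when T cells are activated. The MXD proteins (MXD1, MXI1, MXD3 and MXD4) and MNT also bind DNA as dimers with MAX, but recruit SIN3 and histone deacetylases and repress E-box genes. MLX is a MAX-like protein that pairs with the glucose-sensing factors MLXIP (MondoA) and MLXIPL, and with some of the MXD proteins and MNT. MYCBP2, a very large ubiquitin ligase, has no bHLHZip domain and belongs to the list as a protein first found through its binding to MYC.

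Because E-boxes are what these proteins bind, the promoters of the genes themselves were searched for this motif. RefSeq promoter windows on GRCm38.p6, from 250 bases before to 50 bases after a transcription start, were at hand for 7 of the 9 genes, in 9 windows of which 3 belong to Mxi1. Myc and Mycbp2 had no window. The E-box CACGTG, which reads alike on both strands, was found in 4 of the 7 genes, against 8.09% of all 27025 genes with a window, and in 4 of the 9 windows, against 7.15% of all 32851 windows. The matches are shown 5′ to 3′ on the strand of the gene in stretches of 30 bases, and capitals mark the E-box.
Mxd4: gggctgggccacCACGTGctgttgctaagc
Mnt: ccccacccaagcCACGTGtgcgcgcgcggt
Mlx: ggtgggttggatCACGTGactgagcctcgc
Max: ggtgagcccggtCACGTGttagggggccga
These stretches lie at chr5:34187912-34187941 (minus strand), chr11:74830789-74830818 (plus strand), chr11:101087238-101087267 (plus strand) and chr12:76962234-76962263 (minus strand). The E-box began 219 bases before the start of Mxd4, 123 before that of Mnt, 40 before that of Mlx and 3 before that of Max, where it spans the start itself. These are RefSeq starts, which differ from the GENCODE gene ends printed below, so that distances from the latter differ too. The 4 genes did not change in the same direction, since Mlx and Max rose and Mxd4 and Mnt fell. The Mxd1, Mxd3 and Mxi1 windows held no CACGTG. The variant CACGCG (in 10.5% of all genes with a window), the E2F sites TTTCCCGC, TTTCGCGC, TTTGCCGC and TTTGGCGC (2.6% for any of these) and the element TTTGAA (20.2%), each searched on both strands, were in 0 of the 7 genes. With 7 genes and such shares, this absence tells little. A match is a string of letters in the window and no measurement of binding.

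Library totals ranged from 12881962 to 18934869 counts with vehicle and from 18696114 to 21997078 with AOA. In each group 1 library stood apart, since the chi-square per gene between replicates was 55.1 and 59.7 for vehicle library 2 against 10.02 between vehicle libraries 1 and 3, and 71.1 and 64.6 for AOA library 1 against 10.5 between AOA libraries 2 and 3. Of the 9 genes of the network, 9 were called without vehicle library 2 and 8 without AOA library 1, where Mlx was not. Of 8 listed CD8 T cell markers 7 were in the table, with a summed level of 3945 to 4905 CPM in vehicle and 4994 to 5784 CPM in AOA libraries, and 2 of them (Cd8a and Cd8b1) were called higher and 1 (Cd5) lower. Of 4 CD4 T cell markers all 4 were tested and 3 were called lower, with a summed level of 158 to 210.5 CPM in vehicle and 33.0 to 54.3 CPM in AOA libraries. The other CD4 T cell marker, Foxp3, was not called (log2 fold change 0.36, adjusted p = 0.127 by edgeR). Of 7 myeloid markers 4 were in the table, summing to 41.5 to 55.0 CPM in vehicle libraries, most of which was Itgam, and to 1.41 to 3.96 CPM in AOA libraries. Itgam, which some T and NK cells also express, was called lower, and Mpeg1 was not called. Lyz2 had 0, 5 and 0 counts in vehicle libraries 1 to 3 and 6, 22 and 2 in AOA libraries 1 to 3. Cd14 had 13, 16 and 5 counts with vehicle and 0, 1 and 0 with AOA. Lyz2 and Cd14 did not pass the low-count filter. B cell markers (5 of 6 in the table) summed to 12.9 to 18.5 CPM in vehicle and 23.0 to 30.9 CPM in AOA libraries, where Cd79b was called higher. NK cell markers (3 of 4 in the table) summed to 145 to 308 CPM and 128 to 213 CPM, most of which was Eomes, a gene that CD8+ T cells also express. Klrb1c, an NK cell receptor gene, was called lower (57.7 ± 47.7 CPM with vehicle and 7.14 ± 3.84 CPM with AOA, SD, n = 3), and vehicle library 2 was the highest, with 111 CPM against 41.7 and 20.1 CPM in vehicle libraries 1 and 3. Ncr1 had 37 counts in vehicle library 2, 0 in vehicle libraries 1 and 3, and 5, 11 and 3 in the AOA libraries. The part of these differences in the results below was not tested. In these bulk cultures fewer cells of a kind and less RNA per cell cannot be told apart. Where cultures of 3 mice are compared with 3, the lowest p that exact permutation allows for 1 gene is 0.1, so only the model over all genes is used.

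All 9 network genes were called changed, 4 of them higher and 5 lower with AOA. Without vehicle library 1 or vehicle library 3, 2 were called higher, as Myc and Mlx were then not called. Calls were common in these data, since 53.0% of all tested genes were called, 26.2% as higher and 26.8% as lower. The vehicle and AOA libraries did not overlap in CPM for any of the 9, which also held for 62.1% of tested genes. The changes of the MXD genes were large among tested genes. Of all tested genes, 3.59% had a larger absolute log2 fold change than Mxd3, 5.51% than Mxd1, 8.03% than Mxi1 and 9.18% than Mxd4. Myc, Max and Mlx changed less than a typical tested gene, as 57.7%, 52.9% and 52.0% of genes had larger changes.

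**Figure D1:**
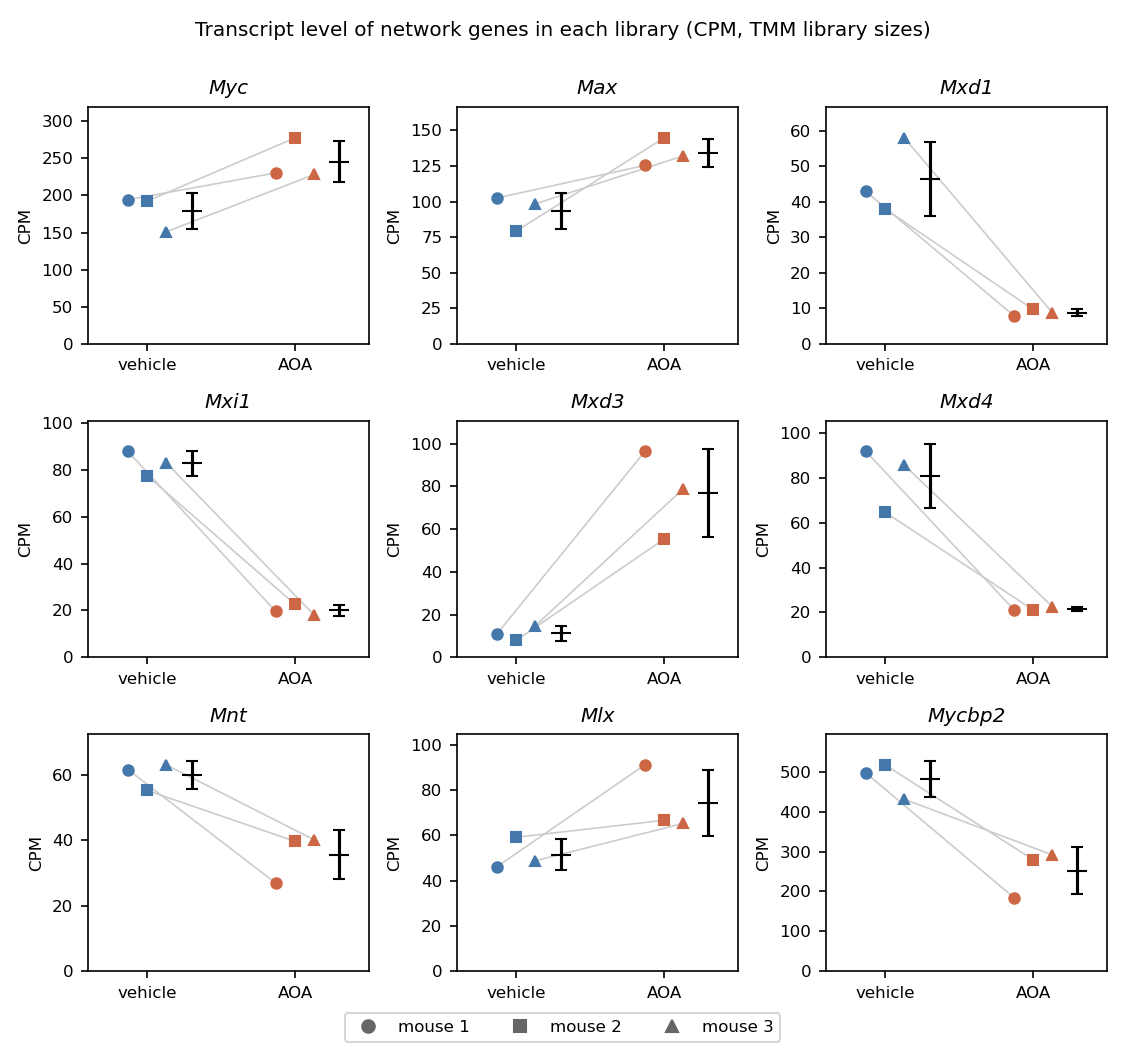
Level of each network gene (CPM with TMM library sizes, linear axis from 0) in the 3 vehicle (blue) and 3 AOA (orange) libraries, with the mouse as symbol shape, grey lines joining the cultures of a mouse, and black bars for the mean ± SD. Mxd1, Mxi1 and Mxd4 fall steeply, Mxd3 rises from 11.2 to 76.9 CPM on average, and Myc, Max and Mlx show smaller rises.

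The activator and the shared partner of the network rose modestly. Myc (Entrez gene 17869, chromosome 15 from 61985391 to 61990374 on the plus strand of GRCm38) had 194, 192 and 151 CPM in vehicle libraries 1, 2 and 3 and 230.4, 277 and 228 CPM in AOA libraries 1, 2 and 3. Every AOA library lay above every vehicle library, with the smallest distance between vehicle library 1 and AOA library 3. The mean rose from 179 ± 24.4 to 245 ± 27.8 CPM (SD, n = 3), a log2 fold change of 0.45 (SE 0.15, adjusted p = 0.0331 by edgeR). Mouse by mouse the rise was 0.25, 0.53 and 0.59 log2 units. The call for Myc was not firm, because it was lost without vehicle library 1 (log2 fold change 0.54, adjusted p = 0.0517 by edgeR), vehicle library 3 (0.37, 0.123), AOA library 2 (0.36, 0.123) or AOA library 3 (0.51, 0.0569).

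Max (Entrez gene 17187, chromosome 12 from 76937269 to 76962201, minus strand), which encodes the partner that MYC, MXD and MNT proteins share, had 102, 79.2 and 98.4 CPM in the vehicle libraries and 125, 145 and 132 CPM in the AOA libraries. Vehicle library 2 had the lowest level and AOA library 2 the highest, so mouse 2 showed the widest step. Its log2 fold change was 0.52 (SE 0.14, adjusted p = 0.0124 by edgeR), and it was called under each alternative but the one that required a log2 fold change of 1 or more in size. Per kilobase, the Myc level divided by the Max level was 1.63 ± 0.37 with vehicle and 1.53 ± 0.080 with AOA (SD, n = 3), and the libraries of the groups overlapped in this ratio.

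The 4 MXD genes moved in opposite directions. Mxd3 (Entrez gene 17121, chromosome 13 from 55325168 to 55329823, minus strand), whose product is known from cells in S phase, had 11.0, 7.92 and 14.8 CPM with vehicle and 96.4, 55.3 and 78.9 CPM with AOA. The lowest AOA library, that of mouse 2, was well above the highest vehicle library. The log2 fold change was 2.77 (SE 0.27, adjusted p = 7.01e-05 by edgeR), or 6.82-fold, and lay between 2.58 and 3.06 under all alternatives. It was the largest change of the 9 genes in either direction.

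Mxd1, Mxi1 and Mxd4, by contrast, encode family members that are best known from resting and differentiating cells. Mxd1 (Entrez gene 17119, chromosome 6 from 86647042 to 86669161, minus strand) had 42.9, 38.0 and 58.0 CPM in vehicle libraries 1 to 3, against 7.95, 9.73 and 8.83 CPM in AOA libraries 1 to 3. The AOA cultures of the 3 mice were close to each other, while vehicle library 3 was the highest. Its log2 fold change was -2.39 (SE 0.19, adjusted p = 2.86e-05 by edgeR). Mxi1 (Entrez gene 17859, chromosome 19 from 53310518 to 53375810, plus strand) had 87.8, 77.4 and 82.9 CPM with vehicle and 19.6, 22.6 and 18.0 CPM with AOA. This gene had the narrowest relative spread among vehicle libraries of the MXD genes, and its log2 fold change was -2.04 (SE 0.14, adjusted p = 1.51e-05 by edgeR). Mxd4 (Entrez gene 17122, chromosome 5 from 34173883 to 34187720, minus strand) had 91.7, 64.6 and 85.6 CPM with vehicle and 21.3, 21.1 and 22.6 CPM with AOA. Vehicle library 2 was the lowest of its group and still well above the highest AOA library. The log2 fold change of Mxd4 was -1.89 (SE 0.16, adjusted p = 3.37e-05 by edgeR). All 3 falls were seen in each mouse and were called under each alternative.

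Taken per kilobase, the summed level of the 4 MXD genes was 111, 82.8 and 111 CPM per kb in the vehicle libraries and 97.4, 66.6 and 85.0 CPM per kb in the AOA libraries. These sums overlapped between groups, although in each mouse the AOA culture had the lower sum. Without Mxd3 the sum was 93.0 ± 14.2 CPM per kb with vehicle and 23.9 ± 0.55 CPM per kb with AOA (SD, n = 3). Mxd4 made up 67.2% ± 2.54 of MXD transcripts per kilobase in vehicle libraries and 22.7% ± 4.19 in AOA libraries (SD, n = 3). Mxd3 made up 8.41% ± 1.61 and 70.5% ± 6.16, with 76.1%, 63.9% and 71.4% in AOA libraries 1, 2 and 3. The share of Mxi1 went from 14.7% ± 1.76 to 4.46% ± 1.37 and that of Mxd1 from 9.78% ± 1.45 to 2.37% ± 0.70 (SD, n = 3).

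Mnt (Entrez gene 17428, chromosome 11 from 74830920 to 74845725, plus strand) encodes a repressor that, unlike most MXD proteins, is made in dividing and resting cells alike. It had 61.7, 55.3 and 63.2 CPM in the vehicle libraries and 26.9, 39.7 and 40.2 CPM in the AOA libraries. AOA library 1 was the lowest, and mouse 1 had the widest step, of -1.20 log2 units against -0.48 and -0.65 in mice 2 and 3. The fall was called, with a log2 fold change of -0.76 (SE 0.17, adjusted p = 0.00559 by edgeR).

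The per-kilobase counts of 6 genes of the network whose products pair with MAX (Myc, the 4 MXD genes and Mnt) were expressed as shares of their sum in each library. Mycn and Mga, which also encode MAX partners but are not among the 9 genes, were left out of this sum. Myc took 39.4%, 45.8% and 33.5% in vehicle libraries 1 to 3 and 48.2%, 60.6% and 50.4% in AOA libraries 1 to 3, and the groups did not overlap. The mean difference was 13.5 percentage points. Mxd3 went from 4.55% ± 1.35 to 30.6% ± 7.58 (SD, n = 3), and Mxd4 from 35.9% ± 4.02 to 9.54% ± 0.57. Mxd1, Mxi1 and Mnt together were the remainder, each with a lower share in every AOA library than in any vehicle library. With Mycn and Mga added to the sum the gain of Myc was 11.1 percentage points. With counts not divided by length the gain of Myc was 21.0 percentage points, and without AOA library 2 it was 9.70. Shares of transcripts do not give the amounts of the proteins, and no test was made of this sum over chosen genes.

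**Figure D2:**
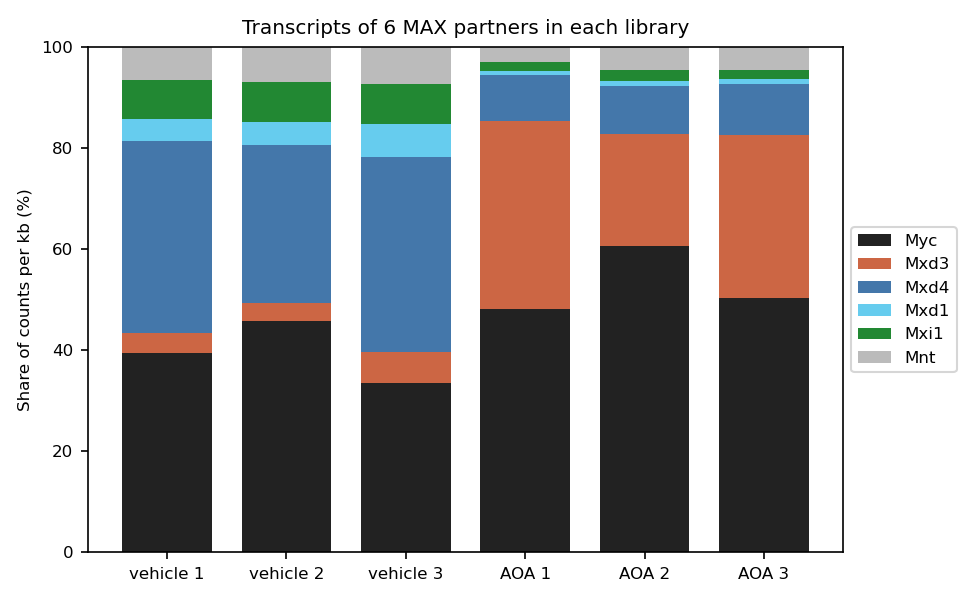
Share (%) of each gene in the summed counts per kilobase of Myc, Mxd1, Mxd3, Mxd4, Mxi1 and Mnt (Mycn and Mga, also MAX partners, are left out), as a stacked bar from 0 to 100 for each of the 6 libraries. Myc (black) is the largest share in all AOA libraries and in vehicle libraries 1 and 2, and Mxd4 (blue) in vehicle library 3. The share of Mxd4 is smaller and that of Mxd3 (orange) larger in AOA than in vehicle libraries.

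The order of levels shifted accordingly. Per kilobase, the vehicle libraries ran from Myc (74.7 ± 10.2 CPM per kb, SD, n = 3) and Mxd4 (68.4 ± 12.04), whose libraries overlapped, to Max (46.6 ± 6.20), then Mycbp2 (31.7 ± 2.96) and Mlx (26.0 ± 3.49), which overlapped, and last Mxi1, Mnt, Mxd1 and Mxd3, from 14.7 down to 8.65, where each neighbouring pair overlapped. In AOA libraries Myc was first at 102 ± 11.6, apart from Max at 66.8 ± 4.90 and Mxd3 at 59.2 ± 15.8, which overlapped each other. Mxd3 and Mlx (37.7 ± 7.38) overlapped as well. Mxd4 (18.4 ± 0.70) and Mycbp2 (16.6 ± 3.86) came next and overlapped, and Mnt (7.77 ± 1.65), Mxi1 (3.57 ± 0.42) and Mxd1 (1.90 ± 0.19) stood at the end, each apart from the next. Mxd3 thus moved from the last to the third place.

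Mlx (Entrez gene 21428, chromosome 11 from 101087277 to 101092207, plus strand) had 46.1, 59.2 and 48.7 CPM in the vehicle libraries and 91.2, 66.6 and 65.3 CPM in the AOA libraries. AOA library 1 stood above the other AOA libraries, and in mouse 2 the step was only 0.17 log2 units. Its log2 fold change was 0.53 (SE 0.17, adjusted p = 0.0255 by edgeR). The call was lost without vehicle library 1 (0.48, adjusted p = 0.0837 by edgeR), vehicle library 3 (0.52, 0.0722) or AOA library 1 (0.36, 0.0623). Mlx shares 385 exonic bases with Psmc3ip on the opposite strand in GENCODE vM21. Psmc3ip rose from 2.10 ± 0.29 to 11.6 ± 1.19 CPM (SD, n = 3), and while the libraries were made with a stranded kit, the sources used here do not say whether the counting used strand. Other overlaps on the opposite strand were 105 exonic bases of Mxd3 with Prelid1 (242 ± 9.01 CPM with vehicle and 301 ± 9.44 CPM with AOA, not called, adjusted p = 0.0582 by edgeR), 514 of Mxd4 with Gm42846 and 194 of Mxi1 with Gm10197. The part of these overlaps in the values was not tested.

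Mycbp2 (Entrez gene 105689, chromosome 14 from 103113411 to 103346814, minus strand) had the most reads of the 9 genes in vehicle libraries, with 498, 518 and 432 CPM, against 185, 280.1 and 292 CPM in AOA libraries. AOA library 1 was again the lowest. The log2 fold change was -0.94 (SE 0.19, adjusted p = 0.00332 by edgeR), and the step was -1.43 in mouse 1 and -0.56 in mouse 3. Huwe1 and Mga, also long genes, were lowest in AOA library 1 among the AOA libraries too. Huwe1 had 318 CPM there against 482 and 455 CPM in AOA libraries 2 and 3, and Mga 106 against 110 and 115 CPM. The part of gene length in these levels was not tested.

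**Figure D3:**
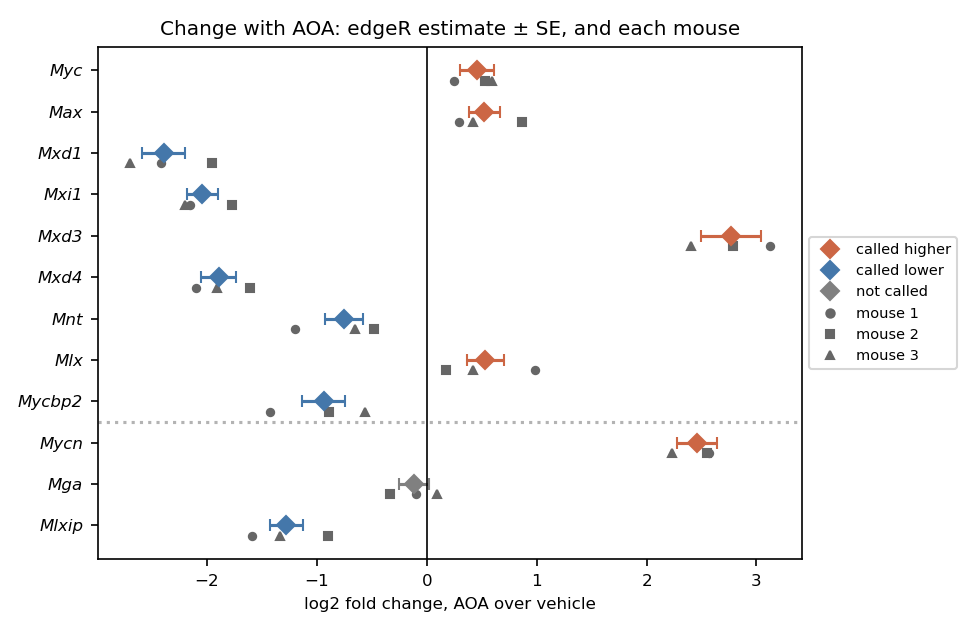
Log2 fold change (AOA over vehicle) of the 9 network genes and, under the dotted line, of Mycn, Mga and Mlxip, as the edgeR estimate ± SE (diamonds, coloured by call) and as the difference within each mouse (grey symbols). The mice lie on the same side of 0 for each gene except Mga, which was not called.

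The counts of each list that follows stand beside 26.2% of all tested genes called higher and 26.8% called lower. The lists were chosen with earlier results of these data known, so their counts describe the listed genes only. Of 10 other bHLHZip genes listed around the network 8 were in the table. Of these 1 was called higher, 3 lower and 4 were not called, with a median log2 fold change of -0.13 against -0.02 over all tested genes. The gene that rose was Mycn, the MYC paralogue known from developing tissues, with 4.21, 4.25 and 5.59 CPM in vehicle libraries and 25.5, 25.5 and 26.7 CPM in AOA libraries. The AOA libraries were close to each other, and the log2 fold change was 2.46 (SE 0.18, adjusted p = 1.95e-05 by edgeR). Per kilobase the Mycn level was 2.49% ± 0.81 of that of Myc with vehicle and 9.84% ± 1.21 with AOA (SD, n = 3). Mlxip, which encodes the glucose-sensing partner of MLX, fell from 201 ± 26.7 to 83.0 ± 9.66 CPM (SD, n = 3), with a log2 fold change of -1.28 (SE 0.15, adjusted p = 1.90e-04 by edgeR). Since Mlx and Mlxip moved in opposite directions, the level of Mlxip per kilobase divided by that of Mlx went from 0.98 ± 0.24 to 0.28 ± 0.072 (SD, n = 3). Usf2 and Usf1, which encode factors that bind the same E-box without MAX, were called lower, at -0.93 and -0.47, and the call of Usf1 was lost without vehicle library 1 or 3 or AOA library 2 or 3 (adjusted p up to 0.132 by edgeR). Mga, the gene of a MAX partner that works with a Polycomb complex, was not called (log2 fold change -0.12, adjusted p = 0.486 by edgeR), and without vehicle library 2 its value was 0.032.

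Among 14 genes for cofactors of MYC, 8 were higher, 1 was lower and 5 were not called, with a median log2 fold change of 0.79. The largest rises were those of Actl6a, Ruvbl1, Kat2a and Ruvbl2 (1.33, 1.27, 1.16 and 1.14), which encode subunits of chromatin remodelling and acetylation complexes. Trrap, Ep400 and Kat5, of the same complexes, had values of -0.31, -0.02 and 0.13 and were not called. Zbtb17, the gene of MIZ1, through which MYC represses genes, fell (-0.78, adjusted p = 0.00711 by edgeR). Of 12 genes for the corepressors of MXD and MNT proteins, 7 rose, 0 fell and 5 were not called, with a median of 0.62. Rbbp7 and Rbbp4, histone chaperones found in several complexes, led with 2.05 and 1.29, ahead of the deacetylase gene Hdac2 (1.07) and Sap30 (0.70). Sin3a and Sin3b, the scaffolds that MXD proteins bind, were not called, at 0.26 and 0.16.

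In a list of 18 genes that set the stability of MYC protein, 6 rose, 0 fell and 12 were not called, with a median of 0.20. This stands beside 26.2% of all tested genes called higher. The number higher was 10 without AOA library 1. The rises were led by Cip2a (2.79), which encodes an inhibitor of the phosphatase that destabilises MYC, and by Skp2 and Aurka (2.53 and 2.32), genes that also rise in dividing cells as part of the cell cycle. Fbxw7, the ubiquitin ligase receptor for phosphorylated MYC, had 33.7 ± 0.50 CPM with vehicle and 32.2 ± 2.02 CPM with AOA (SD, n = 3) and was not called. Huwe1, Gsk3b, Pim1 and Pim2 were not called either.

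Genes known to be raised by MYC were mostly higher with AOA. Of 44 such genes 38 rose, 1 fell and 5 were not called, with a median log2 fold change of 1.35 and a range from -0.39 to 3.18. Their summed level was 6942 to 7704 CPM in vehicle and 12783 to 13428 CPM in AOA libraries. Cdca7, a MYC target in dividing cells, went from 13.3 ± 2.55 to 121 ± 7.03 CPM (log2 fold change 3.18, adjusted p = 1.12e-05 by edgeR), and Tfrc, the transferrin receptor, from 133 ± 9.15 to 681 ± 54.0 CPM (2.36, adjusted p = 1.38e-05). Srm, which encodes spermidine synthase, and Phb, which encodes prohibitin, rose by 2.52 and 2.10. Vehicle library 2 was the highest of its group for 36 of the 44, among them Nop56, Nop58 and Gnl3, genes of nucleolar proteins, with 88.8, 102 and 49.6 CPM. Vehicle libraries 1 and 3 held 52.1 and 59.3 CPM of Nop58, while the lowest AOA library held 251 CPM. Without vehicle library 2, 39 of the 44 were called higher, and 37 without AOA library 1. Srm was higher in vehicle library 2, with 31.9 CPM, than in vehicle libraries 1 and 3, with 9.92 and 11.3 CPM, and its log2 fold change was 3.29 without that library. Ncl and Npm1, which encode nucleolar proteins of ribosome assembly, were not called, at 0.07 and -0.00050. Slc1a5, the gene of a glutamine transporter, was the 1 that fell (-0.39, adjusted p = 0.0412 by edgeR), and its call was lost with the mouse as a replicate block and in 8 other alternatives (adjusted p up to 0.179). Many genes of this list serve growth and division in general, and how far they answer to MYC in these cells was not tested.

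Genes known to be lowered by MYC went mostly the other way. Of 12 listed 11 were tested, and 7 were lower, 1 was higher and 3 were not called, with a median of -0.63. The number lower was 4 without vehicle library 1 and 4 without AOA library 1, and the number higher was 2 without vehicle library 2. Gadd45b, a stress response gene, had 33.4, 15.5 and 29.0 CPM with vehicle and 3.26, 3.07 and 2.72 CPM with AOA (log2 fold change -3.10, adjusted p = 6.02e-05 by edgeR). Cdkn2b, an inhibitor of G1 cyclin-dependent kinases, fell by 2.80 on the log2 scale, although vehicle library 2 held 26.7 CPM against 3.97 and 5.48 CPM in vehicle libraries 1 and 3, and without it the log2 fold change was -1.42. Ndrg4 and Cdkn1b were lower by -2.11 and -1.32, the latter encoding the inhibitor p27. Cdkn2c, the gene of another inhibitor of the same family as Cdkn2b, rose (1.69, adjusted p = 7.14e-05 by edgeR). Cdkn1a was not called, with 56.4, 217 and 73.2 CPM in vehicle libraries 1, 2 and 3 and 81.3, 122 and 101 CPM in AOA libraries 1, 2 and 3, so that vehicle library 2 was the highest and the other vehicle libraries the lowest.

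**Figure D4:**
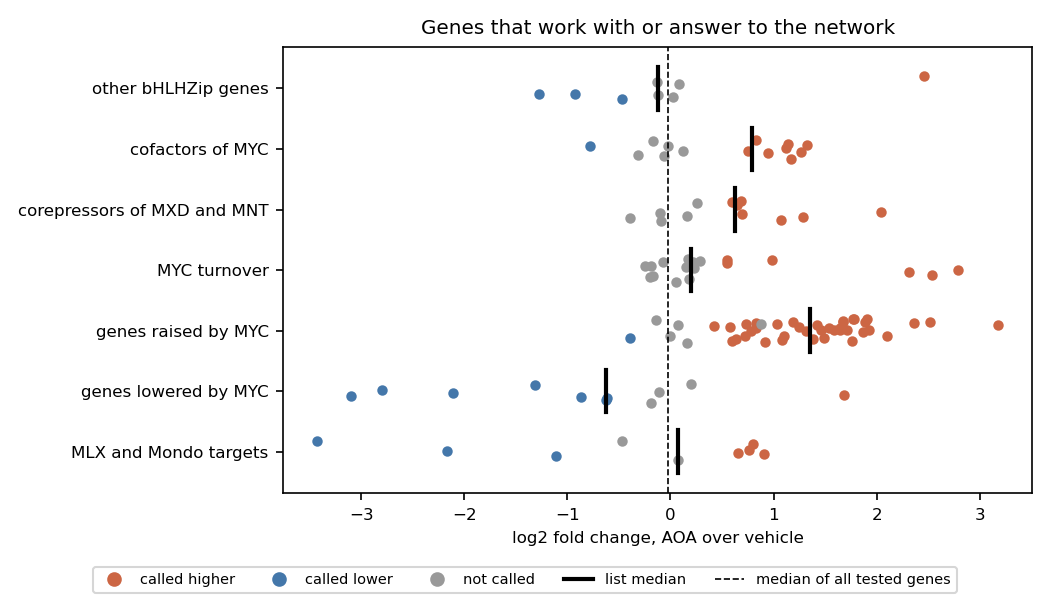
Log2 fold change (AOA over vehicle) of each tested gene in 7 lists of genes around the network, coloured by call, with the list median as a black bar and the median of all tested genes (-0.02) as a dashed line. Genes raised by MYC lie mostly to the right, with a median of 1.35, and genes lowered by MYC mostly to the left, with a median of -0.63.

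The 9 tested targets of MLX with MLXIP or MLXIPL, of 10 listed, went both ways, with 4 higher, 3 lower, 2 not called and a median of 0.07. Txnip, whose product limits glucose uptake and which is the best known target of MLX with MLXIP, had 2137, 916 and 2024 CPM with vehicle and 441, 287 and 401 CPM with AOA. Vehicle library 2 had the lowest level of its group, above all AOA libraries, and the log2 fold change was -2.17 (SE 0.32, adjusted p = 5.84e-04 by edgeR). Its relative Arrdc4 went from 120, 44 and 164 counts to 10, 18 and 11 counts (log2 fold change -3.43, adjusted p = 6.43e-04 by edgeR). Arrdc3, another arrestin gene of the list, was not called (0.07), nor was Klf10 (-0.47). Klf11 was lower (-1.11), but its call was lost under limma and without any library but vehicle library 2. The genes of lipid and pentose phosphate enzymes, Fasn, Acaca, Elovl6 and Tkt, rose by 0.91, 0.80, 0.76 and 0.66, and the call of Acaca was lost without vehicle library 1 or 3 or AOA library 2 (adjusted p up to 0.0584 by edgeR).

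Genes whose log2 CPM most resembled that of Myc over the 6 libraries, among 8762 genes with a mean of at least 10 CPM, were Lss, Noa1, Cdk2ap1, Ptger4 and Nek1, with Pearson's r from 0.971 to 0.980. For Mxd3 they were Ccdc43, Cdkn3, Akip1, Crip1 and Atl2, with r from 0.997 to 0.9997. These libraries share a division into vehicle and AOA, so that any gene that differs between the groups tends to correlate, and the values describe likeness only.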

How the data were processed

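Libraries were made with a stranded mRNA kit. The authors deposited raw counts per gene with a gene length. Per the labels, reads were handled with bcl2fastq, STAR, featureCounts and DESeq2 on mm10 (GRCm38). The sources used here do not give their versions, the annotation, the strand setting or the gene filter. Counts as deposited were fitted in R 4.3.3 with edgeR 4.0.16 (TMM, filterByExpr with a minimum count of 10, robust quasi-likelihood test, unpaired), with Benjamini-Hochberg adjustment over 11759 genes and a threshold of 0.05. SE was taken as the absolute log2 fold change over the square root of F. Log2 CPM used a prior count of 2. The fit was tested on simulated data. Samples were grouped by treatment from the labels. The labels tie 1 culture of each group to 1 mouse, and deviations of same-mouse libraries from their group means correlated at 0.0868, 0.189 and 0.194. The mouse as a block was therefore fitted as an alternative, beside DESeq2 1.42.0, limma voom 3.58.1, other scalings and filters, each library left out, and calls limited to log2 fold changes of 1 or more in size. No library was a copy of another, since chi-square values between replicates were 10.02 or more per gene. Counting error is small beside this spread.

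The 9 genes and the lists were chosen with earlier results of these data known. Named were all 9 genes, the 4 genes with the largest change among those called in each direction in each list, Mlxip, Mga, Txnip and Arrdc4, and the 5 genes most like Myc and most like Mxd3. A gene that this rule names is not reported here. Trrap, Ep400, Kat5, Sin3a, Sin3b, Fbxw7, Huwe1, Gsk3b, Pim1, Pim2, Ncl, Npm1, Cdkn1a, Arrdc3, Klf10, Nop56, Nop58, Gnl3, the marker genes and the overlapping genes were named after their values were seen. Positions are from GENCODE vM21, and promoters from RefSeq on GRCm38.p6.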

Additional observations from a re-analysis of the deposited data

How the results depend on the processing

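Directions of the 9 network genes were the same under each alternative, and the number called was 9 with the mouse as a replicate block, which called 66 list genes higher and 14 lower against 65 and 15 without it. Of the calls named in the text the block ended that of Slc1a5 alone. When calls needed a log2 fold change of 1 or more in size, 4 of the 9 were called, 1 higher and 3 lower, and 41 list genes were higher and 8 lower. Leaving out 1 library gave 7 to 9 called network genes, 2 to 4 higher and 5 lower, 59 to 69 list genes higher and 9 to 14 lower, the 9 being without vehicle library 1. The gain in the Myc share of MAX partners was 21.0 percentage points for counts not divided by length and 9.70 to 16.6 with a library left out. The log2 fold change of Mga, which was not called, ran from -0.17 to 0.032 with a library left out and changed sign without vehicle library 2. The cause of these shifts was not tested. Apart from that minimum fold change, which ends every call under it, the calls of Myc, Mlx, Usf1, Slc1a5, Acaca and Klf11 were lost in at least 1 alternative. With at least 10 CPM required in 3 libraries, Arrdc4, Klf11, Cdkn2b and Ndrg4 gave no value. Cultures of 3 mice at day 7 limit what small changes can be called.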
